A study of Homo sapiens with 12 samples.

Results

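The MAP3K genes encode kinases at the top of the mitogen-activated protein kinase cascades, and 10 of them were followed here in MDA-MB-231, an established triple-negative breast cancer cell line: MAP3K1, MAP3K2, MAP3K3, MAP3K4, MAP3K5, MAP3K7, MAP3K8, MAP3K9, MAP3K11 and MAP3K14. They were chosen by symbol, with earlier results of these data known, and all 10 are among the 18253 genes measured. RNA was profiled on 12 single-color Agilent exon arrays, 3 in each of 4 groups. The cntrl cells were controls, mimic145 cells received the miR-145-5p mimic (5 nM in the protocol), sirnaAGO2 cells Dicer-substrate siRNAs against AGO2 (500 pM for 72 h), and sirnaAGO2+mimic145 cells both agents. All groups are the same line after transient transfection. The protocol names a negative control for each agent, but which groups received which of them is not given per sample. The labels call the replicates biological, with no further origin, so that p-values measure the spread between these arrays.

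A MAP3K phosphorylates a MAP2K, which in turn activates a MAPK such as ERK, JNK, p38 or ERK5, and several MAP3K proteins also act on the kinases that release NF-kB. The members differ in what switches them on: cytokine and Toll-like receptors, oxidative stress, DNA damage or small GTPases. In breast cancer MAP3K1 is known as a frequently mutated gene. A miRNA is carried by an Argonaute protein and pairs with mRNAs mainly through its seed, the bases near its 5′ end, and AGO2 is the human Argonaute known to cut a paired target.

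The mimic carries miR-145-5p, and its sequence is shown because it is the agent of the mimic comparisons below. In RefSeq (GRCh38.p14) it lies at chr5:149430661-149430683 on the plus strand, inside the MIR145 hairpin at chr5:149430646-149430733. The mature strands are given with bases 2 to 8, the seed, in capitals, and the hairpin with miR-145-5p in capitals. The oligonucleotide's own chemistry was not used here.
hsa-miR-145-5p: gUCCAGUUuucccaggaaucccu
hsa-miR-145-3p: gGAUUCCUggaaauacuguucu
MIR145 hairpin: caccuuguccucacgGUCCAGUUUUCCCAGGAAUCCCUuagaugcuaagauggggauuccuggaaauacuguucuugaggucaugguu
Sites for this seed in the MAP3K transcripts were not analysed here.

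The targeted gene was examined first. AGO2 was measured by 19 probes. Its log2 intensity was 9.21, 9.14 and 9.01 in cntrl and 8.35, 8.44 and 8.42 in sirnaAGO2 (replicates 1 to 3). It was 9.44, 9.36 and 9.39 in mimic145 and 8.27, 8.35 and 8.41 in sirnaAGO2+mimic145. All silenced arrays were below all others. AGO2 fell to 61% of cntrl in sirnaAGO2 (log2 difference -0.71, SE 0.08, limma adjusted p = 0.00491), and the exact two-sided permutation test of 3 arrays against 3 gave p = 0.1, the smallest that it can give. This is a mean over unlike probes: all 16 that were above background on every array were lower, with differences of -1.40 to -0.13. The call was lost without any 1 replicate (-0.78 to -0.64, adjusted p 0.114 to 0.221) and without replicate 1 of sirnaAGO2 (-0.68, adjusted p = 0.0522). With the mimic AGO2 rose by 0.28 in cells that were not silenced (adjusted p = 0.0298), and it was 48.1% of mimic145 in sirnaAGO2+mimic145 (adjusted p = 7.8e-04). Of the markers of the line, VIM, CD44, AXL and CAV1 were bright on every array and PGR, listed as low, had 0 kept probes. The others listed as low were in part above background: GATA3 with all 6 of its probes, ESR1 with 28.6% to 42.9% of its probes on an array and CDH1 with 25% to 56.2%. Of the probes of the blood marker PTPRC, 9.09% to 21.2% were above background on an array. The endothelial marker PECAM1 had 1 kept probe of 2, and 0% to 50% of its probes were above background on an array. On an array 60.5% to 77.3% of the spots were above background. Each slide held the arrays of 1 replicate with and without the mimic, the mimic always in the second position, so that position and mimic cannot be told apart. In bulk RNA, fewer cells of a kind and less RNA per cell cannot be told apart either.

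The number of probes differed between the kinases, which bears on how well each is measured. The 10 genes had 154 kept probes, from 6 for MAP3K8 to 25 for MAP3K4. A probe was kept if all 3 arrays of some group showed it above background, so that a dim probe can enter through the group where it is high. Counts of probes by direction are therefore given over the probes above background on all 12 arrays. A gene value is the mean over its probes of log2 quantile normalized intensity, and values are compared between groups within a gene, never between genes. Of the 154 probes, 143 to 154 were above background on the arrays without the mimic and 101 to 150 on those with it, and on each of the 6 slides the array with the mimic had fewer. The lowest was replicate 2 of sirnaAGO2+mimic145. Over all spots 1 slide went the other way, with 77.3% above background in mimic145 replicate 3 against 73.4% in cntrl replicate 3. On the other slides the array with the mimic had the smaller share of all spots too. The part of these differences in the results below was not tested.

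**Figure D1:**
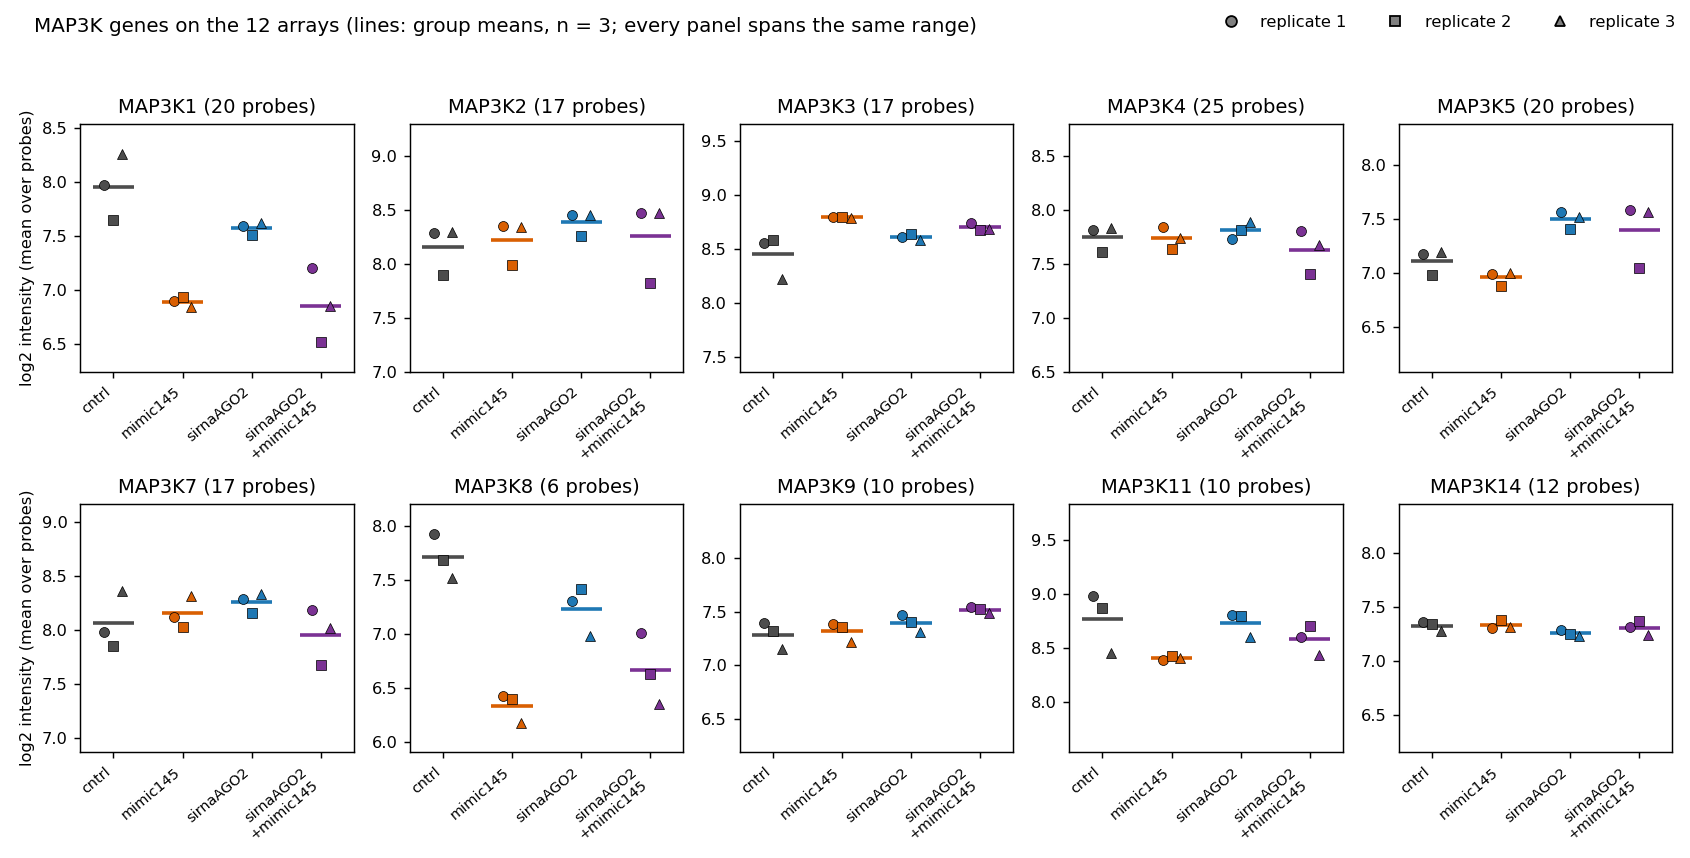
Log2 intensity (y axis, mean over the kept probes of a gene) of the 10 MAP3K genes on each of the 12 arrays, by group (x axis), with group means as lines (n = 3) and replicates as symbols. MAP3K1 and MAP3K8 show the widest range of group means, 1.10 and 1.37 on the log2 scale, and MAP3K14 the narrowest, 0.08.

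The first comparison asked what the miR-145-5p mimic does in unsilenced cells. MAP3K8 and MAP3K1 fell to 38.6% and 47.8% of their level in cntrl, MAP3K11 fell to 77.9%, and MAP3K3 rose to 127%. By limma, 4 of the 10 MAP3K genes passed the adjusted p of 0.05 in mimic145 against cntrl, 3 lower and 1 higher, where 22.6% of all genes tested passed. The median difference of the 10 genes was 0.00, beside 0.01 over all genes. The other 6 members differed by -0.15 to 0.09 and did not pass. With the methods' t-test, a paired test gene by gene, 0 of the 10 passed after adjustment in any comparison. An unadjusted p under 0.05 was seen here for 4 of the 10, not necessarily those called by limma. The share of all genes at that p was not counted for this test.

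MAP3K8, also known as TPL2 or COT, phosphorylates the MAP2K proteins of the ERK cascade downstream of TNF and Toll-like receptors, and is held inactive by the NFKB1 precursor. Its log2 intensity was 7.93, 7.69 and 7.52 in cntrl and 6.43, 6.40 and 6.18 in mimic145. Every mimic145 array lay more than a full log2 unit under every cntrl array. The difference was -1.37 (SE 0.10, limma adjusted p = 9.4e-05), the 45th smallest p of all genes, and the replicate pairs gave -1.50, -1.29 and -1.34. Of its 6 kept probes 4 were above background on all 12 arrays, and these were lower, with differences of -1.74 to -0.35. The other 2 were kept through the groups without the mimic: the probe at -2.05 was above background on 0 of the arrays that received the mimic and the one at -1.84 on 1 of 3 in each such group, so that their levels there are in part bounds. With the 4 probes alone the difference of the gene was -1.09 (adjusted p = 1.7e-05). The call held without any 1 replicate or array, while the size was smaller with normexp background correction (-0.72, adjusted p = 3.2e-05) and with the median over probes (-0.88, adjusted p = 4.2e-04).

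MAP3K1, known as MEKK1, activates the JNK and ERK branches and also has ubiquitin ligase activity. It stood at 7.97, 7.65 and 8.26 in cntrl and at 6.90, 6.94 and 6.84 in mimic145. The mimic145 arrays were close together and all under the lowest cntrl array. MAP3K1 fell by 1.06 on the log2 scale (SE 0.15, limma adjusted p = 0.00152), with pairs of -1.06, -0.71 and -1.42. Of its 20 probes 8 were above background on all 12 arrays, and of these 7 were lower and 1 was 0.16 higher. In mimic145, 2 of the 20 probes were above background on no array, and with the probes above background on all 12 arrays alone the difference was -0.84 (adjusted p = 2.9e-04). The call of MAP3K1 also held without any 1 replicate or array, and with normexp the difference was -0.68 (adjusted p = 4.1e-04).

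MAP3K11, the mixed lineage kinase MLK3, is switched on by the GTPases CDC42 and RAC1 and feeds the JNK cascade. Its values were 8.98, 8.87 and 8.46 in cntrl and 8.39, 8.43 and 8.41 in mimic145. The groups did not overlap, but the third pair differed by -0.05, against -0.58 and -0.44 in the other pairs. MAP3K11 fell by 0.36 (SE 0.10, limma adjusted p = 0.0261), and all 9 of its probes above background on every array were lower, with differences of -0.95 to -0.04. The call was lost without replicate 1 (-0.25, adjusted p = 0.248) or replicate 2 (-0.32, adjusted p = 0.177), and on leaving out any 1 of the 4 arrays of those replicates (-0.34 to -0.27, adjusted p 0.0852 to 0.110). The call was also lost in 4 of 11 other settings, among them 75th percentile scaling (adjusted p = 0.0762) and no replicate block (adjusted p = 0.111).

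MAP3K3, known as MEKK3, acts on MAP2K5 and so on ERK5. It was 8.56, 8.58 and 8.22 in cntrl and 8.80, 8.80 and 8.79 in mimic145, where all arrays were above the highest cntrl array. MAP3K3 rose by 0.34 (SE 0.08, limma adjusted p = 0.0181), with all 15 of its probes above background on every array higher. The third pair held the widest difference, 0.57 against 0.24 and 0.22. The call was lost without any 1 replicate (0.23 to 0.41, adjusted p 0.0656 to 0.108) and without replicate 3 of mimic145 (0.30, adjusted p = 0.0688). It was lost too in 2 of 11 other settings, with only the arrays compared (adjusted p = 0.105) and with the methods' t-test (adjusted p = 0.297).

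**Figure D2:**
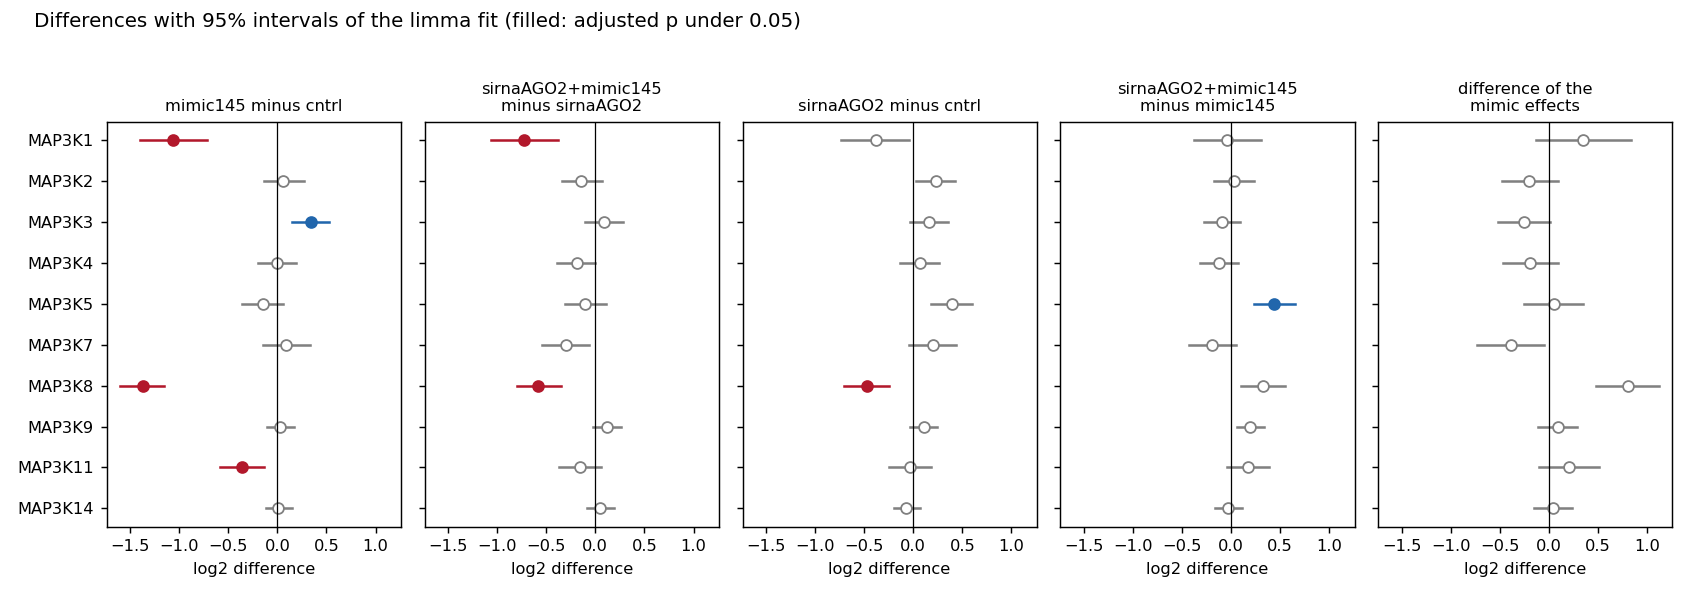
Log2 differences (x axis) of the 10 MAP3K genes (y axis) in each comparison, with 95% intervals of the limma fit as bars, and filled points where the adjusted p was under 0.05. MAP3K1 and MAP3K8 were called lower with the mimic in both arms, and no gene was called for the difference of the mimic effects.

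The 6 members that did not pass act in several branches. MAP3K2, the close relative of MAP3K3, differed by 0.06 (95% interval -0.14 to 0.27). MAP3K4, which binds GADD45 proteins and drives p38 and JNK, differed by 0.00 (-0.20 to 0.19). MAP3K5, the oxidative stress kinase ASK1 that thioredoxin holds inactive, differed by -0.15 (-0.36 to 0.06). MAP3K7, the kinase TAK1 that with the TAB proteins activates IKK, differed by 0.09 (-0.15 to 0.33). MAP3K9, the mixed lineage kinase MLK1, differed by 0.03 (-0.11 to 0.17), and MAP3K14, the kinase NIK of the noncanonical NF-kB pathway, by 0.01 (-0.12 to 0.15). The intervals of MAP3K9 and MAP3K14 were the narrowest of the 10 genes.

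Next, the effect of the mimic was examined in Ago2-silenced cells. MAP3K1 and MAP3K8 were again lower with the mimic, at 60.9% and 67.1% of sirnaAGO2. They were the members that passed, 2 of 10, where 7.28% of all genes passed by limma. The median difference of the 10 genes was -0.15, beside 0.02 over all genes.

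MAP3K1 was 7.59, 7.51 and 7.62 in sirnaAGO2 and 7.20, 6.52 and 6.85 in sirnaAGO2+mimic145. All arrays with both agents lay lower, and replicate 2 was the lowest of all 12 arrays. The difference was -0.72 (SE 0.15, limma adjusted p = 0.0312), and 7 of the 8 probes above background on every array were lower. It did not pass without any 1 replicate (-0.88 to -0.58, adjusted p 0.0562 to 0.210), nor without any 1 array of sirnaAGO2 or without replicate 2 or 3 of sirnaAGO2+mimic145 (-0.77 to -0.60, adjusted p 0.0652 to 0.145). It was smaller with normexp (-0.39, adjusted p = 0.0223) and with probes above background on all 12 arrays (-0.41, adjusted p = 0.0272).

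MAP3K8 was 7.31, 7.42 and 6.98 in sirnaAGO2 and 7.01, 6.63 and 6.35 in sirnaAGO2+mimic145. The groups overlapped, since replicate 1 with both agents was above replicate 3 of sirnaAGO2, while every pair was lower with the mimic (-0.30, -0.79 and -0.63). MAP3K8 fell by 0.58 (SE 0.10, limma adjusted p = 0.0182). Of its 4 probes above background on every array 3 were lower, and the other differed by 0.00. The call was lost without replicate 2 (-0.47, adjusted p = 0.195) or replicate 3 (-0.55, adjusted p = 0.191), and without replicate 2 or 3 of either group (-0.60 to -0.49, adjusted p 0.0675 to 0.0943). Scaling by the 75th percentile gave -0.36 (adjusted p = 0.0765) and the median over probes -0.25 (adjusted p = 0.112), and normexp -0.24 (adjusted p = 0.0213).

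Among the other members MAP3K7 had the largest difference in silenced cells. It was 8.29, 8.16 and 8.33 in sirnaAGO2 and 8.18, 7.67 and 8.02 in sirnaAGO2+mimic145. The difference of -0.30 (95% interval -0.54 to -0.06) did not pass by limma (adjusted p = 0.109). Of 26 alternatives it passed in 1, without replicate 1 of sirnaAGO2+mimic145 (-0.42, adjusted p = 0.0284). It was smaller with probes above background on all 12 arrays (-0.09, adjusted p = 0.397) and with the median over probes (-0.1, adjusted p = 0.585). MAP3K3, which had risen in unsilenced cells, differed by 0.09 (-0.10 to 0.28) and MAP3K11 by -0.16 (-0.37 to 0.06). MAP3K4 differed by -0.19 (-0.39 to 0.00), MAP3K2 by -0.14, MAP3K5 by -0.10, MAP3K9 by 0.12 and MAP3K14 by 0.05, with adjusted p of 0.181 to 0.573.

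**Figure D3:**
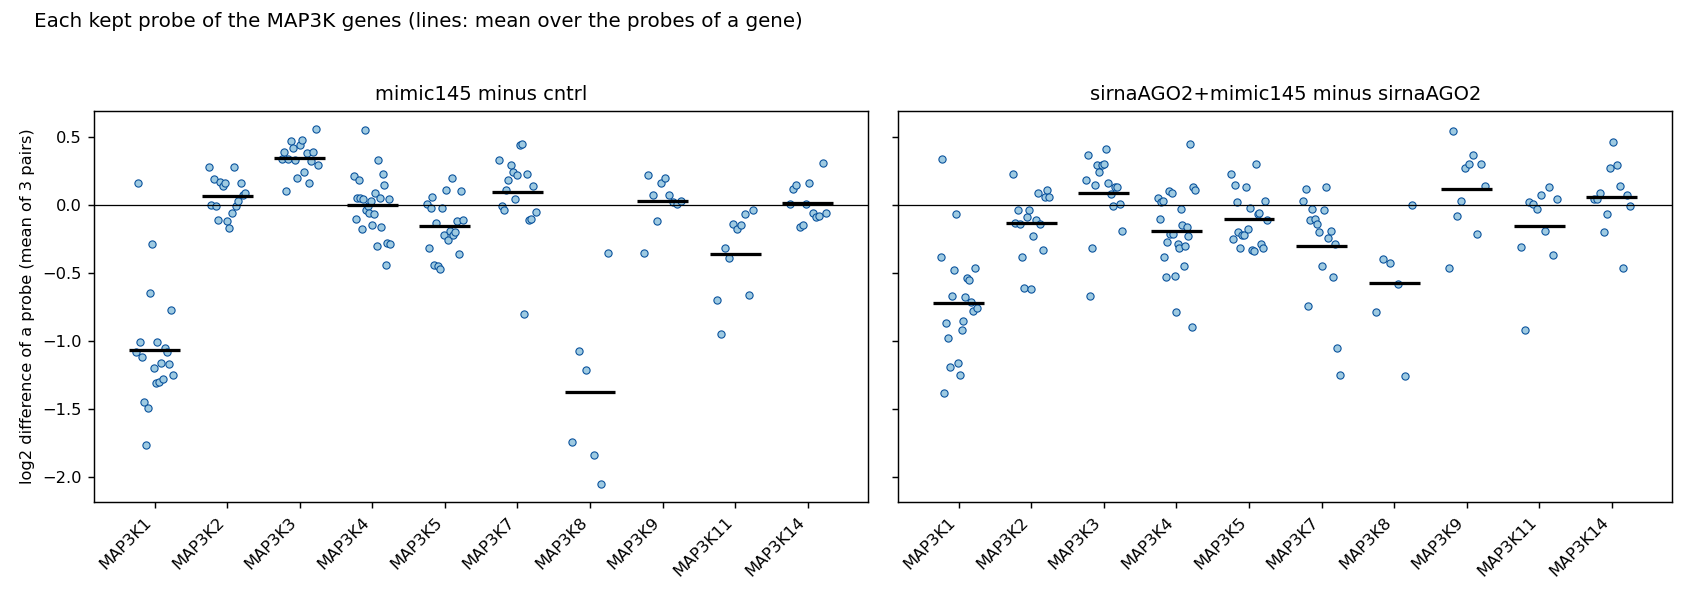
Log2 difference of each kept probe (y axis, mean of the 3 replicate pairs) of the 10 MAP3K genes (x axis). Unsilenced cells are on the left and silenced cells on the right, with the mean over the probes of a gene as a line. Kept probes include dim ones that entered through the group where they are high, as 7 of the 20 of MAP3K1, of which 19 lie below 0 in both panels. Of the probes above background on every array, 7 of the 8 of MAP3K1 lie below 0 in both panels. For MAP3K3 all 15 such probes lie above 0 on the left against 13 on the right.

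Whether the mimic acted differently in silenced cells was tested as the difference of both effects. By limma 0 of the 10 members passed, beside 0.0110% of all genes. An unadjusted p under 0.05 was seen for 2 members (MAP3K8 and MAP3K7), beside 3061 of all 18253 genes. MAP3K8 had the smallest p of the 10 genes: its difference with the mimic was 0.80 smaller in silenced cells on the log2 scale (95% interval 0.48 to 1.12, unadjusted p = 3.0e-04, adjusted p = 0.0778), with a positive value in each replicate (1.20, 0.49 and 0.70) and for all 4 probes above background on every array. This was the 71st smallest p of all genes. It passed with normexp background correction (0.48, adjusted p = 0.0347), where 150 of 18253 genes did, and with probes above background on all 12 arrays (0.69, adjusted p = 0.0217), where 291 of 16396 did. It did not pass in the other 8 settings. Nor did it pass without any 1 replicate (0.60 to 0.95, adjusted p 0.294 to 0.481) or any 1 array (0.69 to 0.89, adjusted p 0.103 to 0.218). In mimic145, 4 of the 6 MAP3K8 probes were above background on all 3 arrays, and the part of the other probes in this difference was not tested beyond these settings.

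For MAP3K1 the difference of the effects was 0.35 (95% interval -0.13 to 0.83, adjusted p = 0.434), with values of 0.67, -0.28 and 0.65 in the replicates and so in both directions. For MAP3K7 it was -0.39 (-0.73 to -0.05, unadjusted p = 0.0285, adjusted p = 0.248), lower in 3 of 3 replicates. For MAP3K3 it was -0.25 (-0.52 to 0.01) and for MAP3K11 0.20 (-0.10 to 0.51). The remaining 5 members lay between -0.20 and 0.09.

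The silencing of AGO2 itself was compared next, without the mimic and with it. MAP3K8 was lower in sirnaAGO2 than in cntrl, at 72% of its level, and MAP3K5 was higher in both comparisons but passed with the mimic alone. By limma 1 of 10 members passed in sirnaAGO2 against cntrl, where 2.58% of all genes passed, and 1 of 10 in sirnaAGO2+mimic145 against mimic145, where 4.32% passed. Each of these comparisons shares its arrays with the mimic comparisons above, so that they are not independent of them.

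MAP3K8 fell by 0.47 in sirnaAGO2 (SE 0.10, limma adjusted p = 0.0447), with pairs of -0.62, -0.27 and -0.54 and no overlap with cntrl. All 4 probes above background on every array were lower. The call is near the threshold: it was lost without any 1 replicate (-0.58 to -0.40, adjusted p 0.152 to 0.386) and on leaving out 10 of the 12 arrays, each array of cntrl, sirnaAGO2 and mimic145 and replicate 3 of sirnaAGO2+mimic145 (-0.57 to -0.40, adjusted p up to 0.200). The call was also lost in 7 of 11 other settings, among them slides as random blocks (adjusted p = 0.361). No slide held arrays with and without the silencing, so that no value within a slide can be given. With the mimic, MAP3K8 was 0.32 higher in silenced cells (95% interval 0.10 to 0.55, adjusted p = 0.103).

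MAP3K5 was 7.17, 6.98 and 7.19 in cntrl and 7.56, 7.41 and 7.52 in sirnaAGO2. It was 6.99, 6.88 and 7.0 in mimic145 and 7.58, 7.04 and 7.56 in sirnaAGO2+mimic145. All silenced arrays were above the unsilenced arrays of the same mimic status, with replicate 2 of sirnaAGO2+mimic145 the closest. The difference was 0.39 without the mimic (SE 0.09, limma adjusted p = 0.0653) and 0.44 with it (SE 0.09, adjusted p = 0.0359), and all 11 probes above background on every array were higher in both. Of the 20 kept probes, 3 had entered through sirnaAGO2 alone. Without the mimic it passed in 5 of 11 other settings and without replicate 2 of sirnaAGO2+mimic145 (0.39, adjusted p = 0.0215). With the mimic it was lost without any 1 replicate (0.36 to 0.58, adjusted p 0.0835 to 0.319), and without any 1 array other than replicate 3 of cntrl and replicate 2 of sirnaAGO2+mimic145 (0.37 to 0.50, adjusted p 0.0557 to 0.140). It was lost too with slides as random blocks (adjusted p = 0.196) and with the median over probes (0.26, adjusted p = 0.173).

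Of the other members, MAP3K1 was 0.38 lower in sirnaAGO2 than in cntrl (95% interval -0.73 to -0.04, adjusted p = 0.210), with no overlap and 8 of 8 probes above background on every array lower, and differed by -0.04 with the mimic (-0.38 to 0.30). MAP3K2 was 0.23 higher without the mimic (0.03 to 0.43, adjusted p = 0.209), with all 15 probes above background on every array higher. MAP3K9, with values of 7.54, 7.52 and 7.49 in sirnaAGO2+mimic145 and 7.38, 7.36 and 7.22 in mimic145, was 0.19 higher (0.06 to 0.33, adjusted p = 0.109). None of these passed here, and among the alternatives MAP3K1 in sirnaAGO2 against cntrl passed with the probes above background on all 12 arrays (-0.38, adjusted p = 0.0454).

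The order of the 4 groups differed between members. MAP3K8 ran from mimic145 (6.34 ± 0.14, SD, n = 3) through sirnaAGO2+mimic145 (6.66 ± 0.33) and sirnaAGO2 (7.24 ± 0.23) to cntrl (7.71 ± 0.21). The lowest 2 groups overlapped and did not pass, and the other neighbours in this order passed. MAP3K1 ran from sirnaAGO2+mimic145 (6.86 ± 0.34) and mimic145 (6.89 ± 0.05), which overlapped and did not pass, through sirnaAGO2 (7.57 ± 0.06) to cntrl (7.96 ± 0.31), which did not pass either. Its step between mimic145 and sirnaAGO2 crosses both treatments and was not tested. MAP3K5 ran from mimic145 (6.96 ± 0.06) and cntrl (7.11 ± 0.11) to sirnaAGO2+mimic145 (7.39 ± 0.31) and sirnaAGO2 (7.50 ± 0.08). Within the unsilenced and within the silenced pair the groups overlapped and did not pass, and the step between cntrl and sirnaAGO2+mimic145 was not tested. MAP3K11 had the order of MAP3K8, from 8.41 ± 0.02 to 8.77 ± 0.27, and MAP3K3 the reverse order, from 8.45 ± 0.20 in cntrl to 8.80 in mimic145.

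The genes whose pattern was most like that of these 3 members over the 12 arrays, after the mean of each replicate number was subtracted, are given as a description. For MAP3K8 they were NUAK1, SH3TC2 and IFI30, with Pearson correlations of 0.992, 0.989 and 0.987. For MAP3K1 they were KLHDC1, NXT2 and NAP1L1 (0.987, 0.986 and 0.986), and for MAP3K5 they were SGPL1, HERC6 and KLHDC10 (0.981, 0.978 and 0.976). MAP3K1 and MAP3K8 correlated with each other at 0.94 and MAP3K3 with either at -0.86. The arrays share slides and treatments, and the genes were the closest of all those with at least 3 probes.

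The other genes of the cascades were described by lists chosen for their role. In mimic145 against cntrl 29 of 102 such genes passed by limma, 21 higher and 8 lower, a share of 28.4% beside the 22.6% of all genes. Their median difference was 0.04. In silenced cells 8 passed, 5 higher and 3 lower, a share of 7.84% beside 7.28%.

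Upstream and beside the members, MAP4K4, a kinase of the group that acts on MAP3K proteins, fell in mimic145 (10.55, 10.10 and 10.04 in cntrl against 9.18, 9.07 and 9.31), by 1.04 (SE 0.11, limma adjusted p = 4.8e-04). It was the only gene of 7 in its list to pass, a share of 14.3% beside 22.6% of all genes. Of the 8 other MAP3K genes, MAP3K20, the ribotoxic stress kinase ZAK, rose by 0.61 (adjusted p = 0.00102) and MAP3K21, a mixed lineage kinase, fell by 0.54 (adjusted p = 0.00189). In silenced cells MAP3K21 fell by 0.50 (adjusted p = 0.0152), while MAP3K20 differed by 0.11 (adjusted p = 0.361).

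Of the partners and regulators 3 of 22 rose and 3 fell, a share of 27.3% beside 22.6% of all genes. TNIP2, which stabilises the MAP3K8 protein, fell by 0.53 (limma adjusted p = 0.0107), and BIRC2, a ubiquitin ligase that with TRAF2 and TRAF3 keeps MAP3K14 low, by 0.69 (adjusted p = 0.00522). TAB2, an adaptor of MAP3K7, rose by 0.35 (adjusted p = 0.0198). BIRC2 also fell in silenced cells, by 0.81 (adjusted p = 0.0142), where it was the only gene of its list to pass.

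Downstream, 2 of 7 MAP2K genes rose and none fell, a share of 28.6% beside 22.6% of all genes. MAP2K3, which acts on p38, rose by 0.46 and MAP2K1, of the ERK cascade, by 0.35 (limma adjusted p = 0.0143 and 0.0488). Among the MAPK genes, MAPK6 rose by 0.41, and MAPK11, a p38 kinase, fell by 0.38 (adjusted p = 0.00588 and 0.0295). Of 11 genes of IKK and NF-kB 5 rose and none fell, a share of 45.5%. Among them RELA rose by 0.53, NFKBIB by 0.62 and NFKB2 by 0.36. Of 12 MAPK phosphatases 4 rose and 1 fell, a share of 41.7%. DUSP22 and DUSP5 rose by 0.61 and 0.57, and DUSP10, which acts on JNK and p38, fell by 0.76. Among 13 nuclear targets JUNB rose by 0.56 and JUN by 0.44, each measured by 1 probe, and ELK4 fell by 0.45. The scaffold SH3RF1, which holds mixed lineage kinases and JNK together, rose by 0.33, 1 gene of 9 (11.1%).

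In silenced cells DUSP5, SH3RF1 and JUNB rose too, by 0.32 to 0.39. There 0 of 7 MAP2K genes and 0 of 11 genes of IKK and NF-kB passed, beside 7.28% of all genes. KSR2 (0.36) and MAP4K3 (-0.40), which also passed there, are named after their values were seen. The silencing alone moved 5 of the 102 genes (4.90%), and these too are named after their values were seen. EGR1 rose by 1.69 (limma adjusted p = 0.0175), from 8.61, 7.68 and 8.67 in cntrl to 10.16, 9.17 and 10.71 in sirnaAGO2. It was measured by 2 probes, 1 of them above background on every array. MAP2K4, BIRC3, DUSP10 and DUSP16 differed by -0.54 to -0.43. With the mimic 6 passed (5.88%), among them MAP4K4, which was 0.54 higher in silenced cells (adjusted p = 0.0326), and MAP2K4, which was lower (-0.48, adjusted p = 0.0161). For the difference of the mimic effects limma called 0 of 102, with 18 at an unadjusted p under 0.05, beside 3061 of all 18253 genes.

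**Figure D4:**
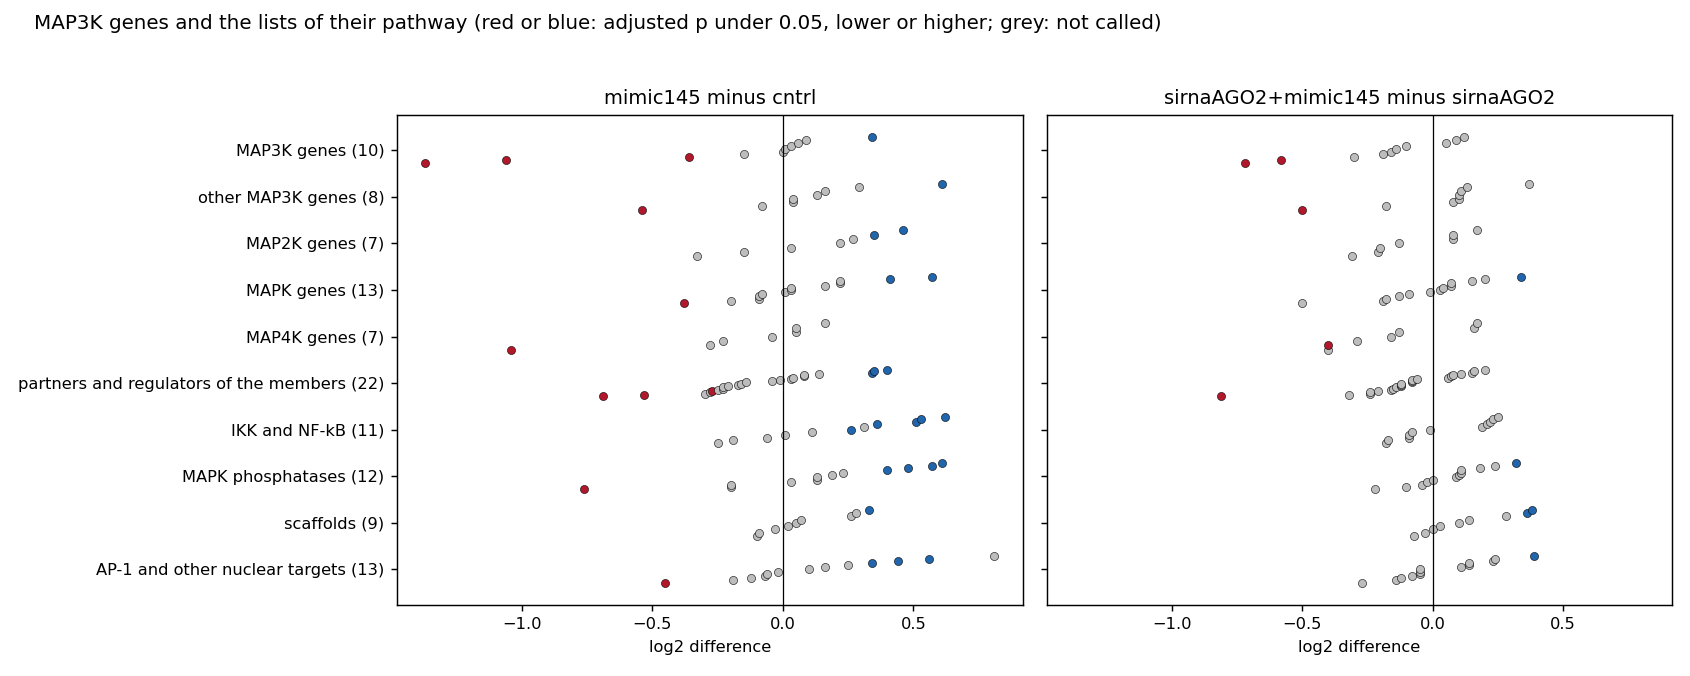
Log2 differences (x axis) of the 10 MAP3K genes and of the 9 lists of their pathway (y axis, number of genes in parentheses). Unsilenced cells are on the left and silenced cells on the right. Each point is a gene, in color where the limma adjusted p was under 0.05, and on the left 29 of the 102 list genes are colored against 8 on the right.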

How the data were processed

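Intensities were read from 12 single-color Agilent exon arrays, which the authors scanned in 1 day on 6 slides and processed with Feature Extraction 10.7.3.1. The authors deposited the processed signal of each array, an intensity corrected for background and not normalized between arrays, and a table of log2 values, quantile normalized by the authors, used as an alternative. Outlier spots (304 to 462 an array) were left out. Intensities (floor 1) were quantile normalized and log2 transformed, and spots averaged by probe. Probes were named through their transcript accession (RefSeq, GRCh38.p14 table; the array design is older, so no gene coordinates are given): 209671 of 233164 matched, to 20708 genes. The filter left 142929 probes of 18253 genes.

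Group means with a term for replicate number, after the paired test of the study's methods, were fitted with limma 3.58.1 (R 4.3.3), with two-sided tests and Benjamini-Hochberg adjustment over all genes. Deviations of arrays with the same number correlated at 0.148 to 0.576 (18 pairs), and of others at -0.497 to 0.201. The deviations were taken from the means of groups of 3 arrays, so that these ranges are not independent of each other. Named genes are the 10 members, AGO2, up to 3 genes of each list with the smallest adjusted p in mimic145 against cntrl and the same direction in all pairs, and the 3 genes most like each of the 3 members of widest range. One gene that the rule names is not reported here. The members and lists were chosen with earlier results of these data known. The script was tested on simulated data. Plots used Python 3.11.15, matplotlib 3.10.9 and pandas 2.3.3.

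The alternatives were 75th percentile scaling, normexp with an offset of 50, the authors' table, 2 other filters, fits without the block or with slides as random blocks, the median over probes, fewer arrays, an intensity trend, the methods' t-test, and leaving out each replicate or array.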

Additional observations from a re-analysis of the deposited data

How the results depend on the processing

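In mimic145 against cntrl, MAP3K1 and MAP3K8 kept an adjusted p under 0.05 and a negative difference in every alternative but the methods' t-test (adjusted p = 0.209 and 0.147). Over all members, comparisons and alternatives 1164 values kept their direction and side of the threshold, 78 lost the call, 10 gained one and 38 changed sign, none of these with a call. Members that passed numbered 1 (mimic in silenced cells) and 2 (sirnaAGO2 against cntrl) with 75th percentile scaling, 2 (sirnaAGO2 against cntrl) and 1 (difference of the mimic effects) with normexp, and 3 and 1 with probes above background on all 12 arrays. For the mimic in silenced cells 2394 of all 18253 genes passed with the scaling, against 1328. For silencing, 615 and 828 of all 18253 genes passed with the scaling and normexp and 1117 of 16396 with those probes, against 471. For the difference of the mimic effects 150 passed with normexp and 291 with those probes, against 2. With those probes 8, 11 and 2 pathway genes passed for silencing without the mimic, with it, and the difference. With the median over probes 1 member passed for the mimic in silenced cells and 0 for silencing without and with the mimic, and 5, 2 and 2 pathway genes. Of all 18253 genes 1067, 236 and 357 passed there. With no replicate block 0 members passed outside the first comparison, and 19, 1, 0 and 0 pathway genes in the first 4 comparisons. The slide as a random block gave 0 members for silencing without and with the mimic, and 5, 0 and 0 pathway genes. With only the arrays compared, 2, 0, 0 and 0 members and 12, 0, 2 and 0 pathway genes passed. With an intensity trend 10 pathway genes passed for silencing with the mimic. The methods' t-test called 0 members and 0 pathway genes after Benjamini-Hochberg, and 4, 1, 3 and 2 members and 28, 20, 19 and 17 pathway genes at an unadjusted p under 0.05. It left AGO2 at -0.71 (adjusted p = 0.240). Over all genes, no share was counted for the fit with no replicate block and the alternatives named after it.

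Leaving out 1 replicate or array gave 2 to 4 members for the mimic, 0 to 3 in silenced cells, 0 to 2 for silencing and 0 to 1 for silencing with the mimic. The pathway counts were 11 to 32, 0 to 11, 0 to 5 and 0 to 8, and AGO2 in sirnaAGO2 against cntrl lay between -0.78 and -0.64. The share of all genes that passed was not counted with these replicates or arrays left out. In mimic145 against cntrl, MAP3K4 lay between -0.03 and 0.03, MAP3K9 between -0.0022 and 0.06 and MAP3K14 between -0.0022 and 0.04. In silenced cells MAP3K2 lay between -0.21 and 0.01 and MAP3K5 between -0.18 and 0.03. For silencing MAP3K4 lay between -0.01 and 0.16 and MAP3K11 between -0.14 and 0.06, and with the mimic MAP3K1 between -0.21 and 0.15 and MAP3K2 between -0.03 and 0.14. The difference for MAP3K5 lay between -0.04 and 0.21. Signs also changed in mimic145 against cntrl for MAP3K4 with 75th percentile scaling (0.06), the authors' table (0.01) and the median over probes (0.06), for MAP3K9 with no filter (-0.0024) and for MAP3K14 with the median (-0.09). They changed for MAP3K5 in silenced cells with 75th percentile scaling (0.04) and, for silencing with the mimic, for MAP3K1 and MAP3K14 with normexp (0.02 and 0.01) and with probes above background on all 12 arrays (0.05 and 0.07), and for MAP3K14 with the median (0.06). The difference changed sign for MAP3K14 with no filter (-0.00084) and for MAP3K5 with the median (-0.04).

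In silenced cells 75th percentile scaling moved the median of all genes from 0.02 to 0.107 and the share of calls that were higher from 58.4% to 80.2%. Normexp called 150 genes for the difference of the mimic effects, and the probes above background on all 12 arrays 291, against 2. The cause of these changes was not tested. The number of arrays limits the precision (median SE 0.099 over genes), and MAP3K8 rests on 6 probes, several near background with the mimic.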
